A study of Mus musculus with 41 samples.

Results

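The comparison of Th2 cells with induced deletion of Tet1, Tet2 and Tet3 with the wild-type (WT) cells of the same line after the first cycle of differentiation comprised 4 BS-seq samples of the 41 in the series, 2 of TET iTKO cells and 2 of TET WT cells. The samples were chosen by the genotype, cell type and assay in their labels, and no measured value entered the choice. Each sample was 1 library of PCR amplicons from bisulfite-treated genomic DNA of the mouse Il4 locus. Cytosines of 64 CpGs in 7 regions were read on the strand of Il4 transcription. TET iTKO cells came from mice with floxed alleles of Tet1, Tet2 and Tet3, a tamoxifen-inducible Cre and a Cre reporter at Rosa26, on the C57BL/6 background. For TET WT cells the labels give C57BL/6 and wild type, without saying which floxed alleles, Cre or reporter these mice carried. The mice were aged 8 to 16 weeks. Tamoxifen (2 mg per 100 μl injection in corn oil, into the peritoneum) was given over 5 days, and the controls received it too. Deletion was thus induced in the living animal. It was incomplete for each of the 3 genes by the methods, which also describe sorting reporter-positive naïve CD4+ T cells. Those cells, from spleen and lymph nodes, were stimulated for 2 days with antibodies to CD3 and CD28 (1 μg/ml each) together with IL-4 (1000 U/ml) and an antibody to IFN-γ (1 μg/ml). They were then expanded with IL-2 (20 U/ml) for 3 days by the labels and 4 days by the methods.

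Compared with them below were 3 samples of naïve CD4+ T cells and 3 of first-cycle Th2 cells from a separate WT set, 6 samples of TDG WT and TDG iKO Th2 cells of the first cycle, and 4 samples of TET WT and TET iTKO cells of the second cycle. All are labelled C57BL/6. TDG iKO cells carry floxed Tdg alleles with the same inducible Cre and another Cre reporter at Rosa26. The first-cycle cultures had the same conditions by the labels, and in the second cycle the cells were stimulated again in the same way for 1 day and kept in IL-2 for 4 days. The labels give no treatment for any of these cells, so the tamoxifen is known from the methods alone. The labels do not say whether replicates came from separate animals, so that each p-value measures the spread between these libraries.

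TET proteins are dioxygenases that oxidise 5-methylcytosine (5mC) in DNA, first to 5-hydroxymethylcytosine (5hmC) and from there to 5-formylcytosine and 5-carboxylcytosine, and through these products methylated cytosines can return to cytosine. TDG is the glycosylase that removes the last pair of products from DNA. Il4 encodes the signature cytokine of Th2 cells, and its promoter, the upstream element CNS1, the hypersensitive site HSII in intron 2 and the downstream element CNS2 are known regulatory elements of the gene. In BS-seq, 5mC and 5hmC are read as C, whereas cytosine and the further oxidation products are read as T, so the level of a CpG given here is the percentage of its reads with C and stands for 5mC + 5hmC together.

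The median number of reads per CpG was 1026 and 5500 in TET WT replicates 1 and 2, and 952 and 3999 in TET iTKO replicates 1 and 2. The counts stopped at 65535 reads, a limit reached at 5 CpGs in TET WT replicate 2 and at 9 in TET iTKO replicate 2. These were CpGs 43 to 47 of exon 3 in both, and CpGs 14 to 17 in TET iTKO replicate 2. How reads beyond the limit were dropped is not stated, so the levels of these CpGs in these libraries are less certain than their depth. Cytosines outside CpGs were read as C in 0.244% and 0.237% of their reads in the TET WT libraries and in 0.258% and 0.241% in the TET iTKO libraries. Non-conversion measured in this way was thus low in all 4 libraries. Of the 64 CpGs, 60 had at least 100 reads in each of the 4 libraries and were tested. CpG23 and CpGs 62 to 64 had fewer, down to 35 reads at CpG64 in TET iTKO replicate 1.

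TET iTKO cells had higher 5mC + 5hmC levels than TET WT cells over most of the locus. The difference was largest in the middle of CNS1, at the end of exon 1 and the start of intron 1, and at the promoter. It was smaller in the 3′ region of HSII, the called CpGs of CNS2 were at its 5′ edge, and exon 3 had none. A call of higher in TET iTKO cells was made at 36 of the 60 CpGs (60.0%) and a call of lower at 0, with 41 at an unadjusted p under 0.05 and a smallest adjusted p of 2.17e-07 (quasi-binomial regression with dispersions moderated by limma, two-sided, Benjamini-Hochberg over the 60 CpGs, called under 0.05). limma on log ratios of the counts called 41 higher and 0 lower. The 36 called CpGs differed by 6.44 to 59.6 points, with a median of 31.8 points, against a median of 12.5 points over all 60 CpGs. Among the 24 CpGs without a call, 20 had a higher mean in TET iTKO cells and 4 a lower one, and the largest difference was 14.3 points. Both TET iTKO libraries lay above both TET WT libraries at 47 of the 60 CpGs (78.3%), which included all 36 that were called. When the fit was restricted to both genotypes, with replicate as a blocking term, the calls fell to 0, at a smallest adjusted p of 0.0684, and 23 had an unadjusted p under 0.05 (limma-moderated regression). Each of 30 CpGs was called whichever of the 4 libraries was left out, and the calls of CpGs 33, 36, 37, 38, 42 and 51 were lost in at least 1 of these fits.

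**Figure D1:**
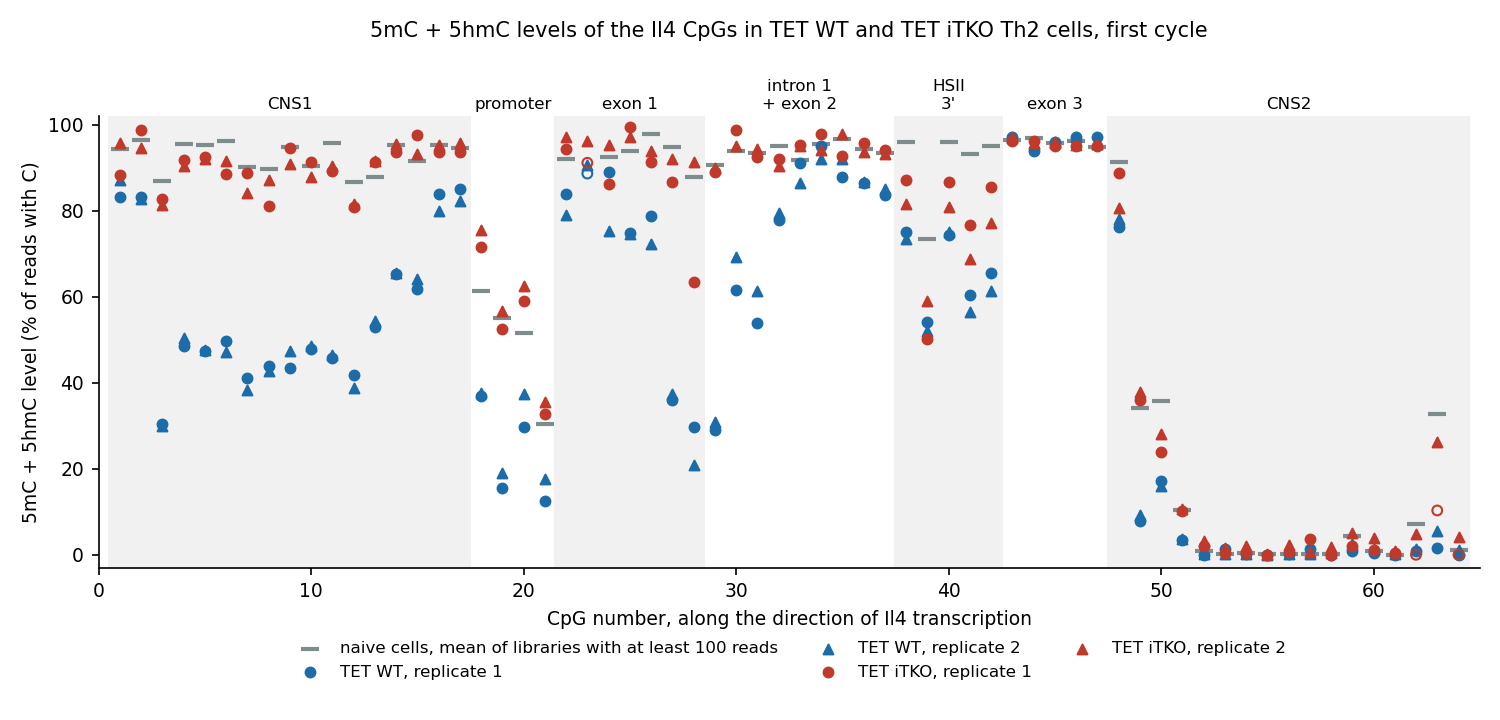
Level of each of the 64 CpGs (y axis, % of reads with C) by CpG number (x axis) in the 2 TET WT libraries (blue), the 2 TET iTKO libraries (red) and the mean of naïve cells (grey bars). Open symbols have fewer than 100 reads. The red points lie near the grey bars in CNS1 at 81.1% to 96.6% on average, while the lowest blue point there is at 30.0%.

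In TET WT cells the levels fell into a wide range, and in TET iTKO cells most CpGs had 80% or more. On the group means, 29 of the 60 CpGs in TET WT cells lay between 20% and 80%, compared with 9 in TET iTKO cells, and 16 and 40 CpGs had 80% or more. These numbers were much alike in the single libraries, with 29 and 32 CpGs between 20% and 80% in TET WT cells and 9 in either TET iTKO library. At the other end, 15 CpGs in TET WT cells and 11 in TET iTKO cells were under 20%. Replicates lay close together, with a median distance of 1.60 points between the TET WT libraries and 2.49 points between the TET iTKO libraries over the 60 CpGs. The largest distances were 13.8 points at CpG24 in TET WT cells and 27.9 points at CpG28 in TET iTKO cells, both in exon 1. Across CpGs, which are not independent replicates and share their libraries and amplicons, the levels of the replicates correlated at r = 0.994 in TET WT and r = 0.990 in TET iTKO cells.

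The sequence next to a CpG was described as well, with no test. The share of CpGs called was 70% of the 20 followed by A, 52.2% of the 23 followed by G, 60.0% of the 10 followed by C and 57.1% of the 7 followed by T, beside 60.0% of all 60. The letters GATA, or TATC on the other strand, which are the core of the motif bound by GATA factors, occurred within 15 bases of 9 of the 64 CpGs (14.1%), compared with 17.9% of all 2216 windows of the same 32 bases in the amplicons. Of these 9 CpGs, 5 were called (55.6%), namely CpGs 3, 20, 25, 26 and 29, beside 60.8% of the other 51 tested CpGs. The other 4, CpGs 50, 56, 60 and 61, lay in CNS2 and were not called. The median difference over all 9 was 17.2 points, beside 12.5 points over the other 51.

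CNS1 lies upstream of Il4, from 8597 to 8105 bases before the start of its first exon. All of its 17 CpGs were tested, and for 16 the call was higher in TET iTKO cells. The mean of the region was 56.1% in both TET WT libraries and 90.4% and 90.5% in the TET iTKO libraries, a difference of 34.3 points ± 0.0583 (SD, n = 2 against 2; exact permutation test, two-sided, p = 0.33). That p-value is the smallest that 2 libraries against 2 allow, and it was the same for each of the 7 regions. The levels of single CpGs followed a trough in TET WT cells, high at both edges of the element and low in between, and were nearly flat in TET iTKO cells. The SD of the mean levels over the 17 CpGs was 17.6 points in TET WT and 4.59 points in TET iTKO cells. CpGs 1 and 2 at the 5′ edge had TET WT means of 85.1% and 82.9%, and CpGs 16 and 17 at the 3′ edge had 81.9% and 83.6%. Between them, CpGs 3 to 8 averaged 43.5% and 42.7% in the TET WT libraries and 87.5% and 87.8% in the TET iTKO libraries, and CpGs 9 to 13 averaged 46.3% and 47.1% against 89.3% and 88.4%. All 11 of these were called, with differences of 37.7 to 52 points and adjusted p-values of at most 7.51e-06 (quasi-binomial regression with limma, as above).

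In TET WT cells the lowest CpG of CNS1 was CpG3, at 30.3% and 30.0%. Its levels in the TET iTKO libraries were 82.8% and 81.4%. With 52 points ± 1.05 (SD; adjusted p = 1.79e-06 by the same regression with limma), it had the largest difference of the element, and the libraries of the genotypes were over 50 points apart. CpG9 was the CpG of the middle amplicon with the largest difference, with 43.3% and 47.4% in TET WT and 94.5% and 90.8% in TET iTKO cells. CpG13, in the same amplicon, had the smallest, with 52.9% and 54.3% against 91.2% and 91.5%. Even there, the lower TET iTKO library exceeded the higher TET WT library by 36.8 points. In the amplicon nearest to Il4, CpG15 had 61.8% and 64.2% in TET WT and 97.5% and 93.1% in TET iTKO cells, and CpG17 had 85.0% and 82.3% against 93.5% and 95.6%. The differences of these CpGs, 32.3 and 11 points, were both called (adjusted p = 1.07e-06 and 0.00402, limma-moderated regression). CpG1 was the CpG of CNS1 without a call, with 83.1% and 87.2% in TET WT and 88.3% and 95.7% in TET iTKO cells (difference 6.90 points ± 5.97, adjusted p = 0.0619, limma-moderated regression). The libraries of the genotypes did not overlap at CpG1, and without TET iTKO replicate 1 it was called, at 10.6 points and an adjusted p of 0.0180 by the same limma-moderated regression. limma on log ratios called it as well (adjusted p = 0.0308).

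CpGs 3 to 8 span 94 bases of CNS1. The stretch is shown with 15 bases on each side because it holds the CpG with the largest difference of the element, and the capitals mark the CpGs (mm9, minus strand, chr11:53440560-53440683). The letters tatc follow CpG3, the first in the sequence.
CNS1, CpGs 3 to 8: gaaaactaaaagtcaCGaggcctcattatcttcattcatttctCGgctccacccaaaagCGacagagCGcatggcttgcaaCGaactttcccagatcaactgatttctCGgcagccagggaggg

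The promoter amplicon held 4 CpGs, from 345 to 251 bases before the first exon, and TET iTKO cells were called higher at all 4. Its mean level was 23.7% and 27.9% in the TET WT libraries and 54.0% and 57.5% in the TET iTKO libraries, so that the genotypes differed by 30.0 points ± 3.87 (SD, n = 2 against 2). Unlike CNS1, the promoter was far from full methylation in TET iTKO cells, and its CpGs spread more widely there (SD 16.4 points over the 4 CpGs) than in TET WT cells (11.2 points). CpG19 had the largest difference, with 15.6% and 18.9% in TET WT and 52.5% and 56.7% in TET iTKO cells (37.4 points ± 3.76, adjusted p = 2.00e-06, limma-moderated regression). CpG21, the nearest to the gene, had the smallest, with 12.6% and 17.5% against 32.7% and 35.5% (19.0 points ± 4.01, adjusted p = 0.000949, limma-moderated regression). On the group means the 4 CpGs had the same order in both genotypes, from CpG18 over CpG20 and CpG19 to CpG21. CpG19 and CpG21 were close together in TET WT cells, at 17.2% and 15.1%, and farther apart in TET iTKO cells, at 54.6% and 34.1%. The promoter CpGs are printed with the surrounding bases to show their spacing (mm9, minus strand, chr11:53432407-53432531, CpGs in capitals), with the letters gata just after CpG20, the third.
Promoter, CpGs 18 to 21: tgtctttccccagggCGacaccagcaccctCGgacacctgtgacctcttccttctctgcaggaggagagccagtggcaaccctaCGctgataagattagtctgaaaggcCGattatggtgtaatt

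Exon 1 showed a step between neighbouring CpGs in TET WT cells. Of its 7 CpGs, 6 were tested, and TET iTKO cells were called higher at 5. The mean over the 6 was 65.4% and 59.9% in TET WT and 86.9% and 94.4% in TET iTKO cells, and it differed by 28.1 points ± 6.58 (SD, n = 2 against 2). CpGs 25 and 26, which are 6 bases apart in the coding part of the exon, had means of 74.6% and 75.5% in TET WT cells. CpGs 27 and 28 near the end of the exon had 36.7% and 25.3%. In TET iTKO cells the same 4 CpGs had means of 98.3%, 92.6%, 89.3% and 77.3%, so that the differences at CpGs 27 and 28 were the larger ones. CpG27 had 36.0% and 37.3% in TET WT and 86.6% and 92% in TET iTKO cells (52.7 points ± 3.92, adjusted p = 9.40e-07, limma-moderated regression).

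CpG28 was the CpG of all 60 at which replicates lay farthest apart. It had 29.8% and 20.9% in TET WT cells, and 63.3% (95% Wilson interval 58.5% to 67.8%, 406 reads) and 91.2% (89.9% to 92.4%, 1947 reads) in TET iTKO replicates 1 and 2. Such intervals, like the limits given for counts of 0 (3 reads over the total, another bound than Wilson's), describe the counting of reads alone. Several PCR reads can come from 1 molecule, and the number of molecules is not known. The TET iTKO libraries were 27.9 points apart, and both stood above the TET WT libraries by at least 33.5 points (difference of the means 51.9 points ± 20.7, adjusted p = 2.97e-05, limma-moderated regression). CpG24 was the tested CpG of exon 1 without a call. Its levels were 89% and 75.3% in TET WT and 86.2% and 95.2% in TET iTKO cells, so that the genotypes overlapped (8.57 points ± 11.6, adjusted p = 0.0775, limma-moderated regression). CpG24 was called without TET WT replicate 1 (15.5 points, adjusted p = 0.0175) and without TET iTKO replicate 1 (13.1 points, adjusted p = 0.0238) by the same limma-moderated regression. CpG23, in the untranslated part of the exon, was not tested because replicate 1 of either genotype had 44 and 56 reads. It had 88.6% and 90.6% in TET WT and 91.1% and 96.1% in TET iTKO cells. The stretch with CpGs 25 to 28 is given for the step between its first and its second pair (mm9, minus strand, chr11:53431980-53432055, CpGs in capitals), with the letters tatc before CpG25.
Exon 1, CpGs 25 to 28: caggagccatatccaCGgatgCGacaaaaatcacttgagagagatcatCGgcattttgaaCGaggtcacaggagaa

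The low levels at the end of exon 1 in TET WT cells went on into intron 1. The amplicon of intron 1 and exon 2 held 9 CpGs, all of them tested, and TET iTKO cells were called higher at 7. Its mean was 74.0% and 75.9% in the TET WT libraries and 94.1% and 93.7% in the TET iTKO libraries (18.9 points ± 1.37, SD, n = 2 against 2). CpG29, 248 bases after the start of the first exon, had the largest difference of all 60 CpGs. It stood at 28.9% and 30.8% in TET WT and at 88.9% and 90% in TET iTKO cells (59.6 points ± 1.60, adjusted p = 2.17e-07, limma-moderated regression). CpG30 followed with 61.6% and 69.3% against 98.7% and 95%, and CpG31 with 53.9% and 61.4% against 92.4% and 94.2%. Farther into the amplicon the levels of TET WT cells were high already, at 78.6% to 93.4% for CpGs 32 to 37, and the differences there were 2.37 to 12.5 points, with 4 of the 6 called. The calls of CpGs 33, 36 and 37 among these were lost without at least 1 of the libraries. CpG34 and CpG35, at the start of exon 2, were not called. CpG34 had 94.9% and 92% in TET WT and 97.7% and 94% in TET iTKO cells, which overlapped (adjusted p = 0.363, limma-moderated regression). CpG35 had 87.9% and 92.1% against 92.6% and 97.7% (5.14 points ± 4.69, adjusted p = 0.0852), and was called without TET iTKO replicate 1 at 7.71 points (adjusted p = 0.0298, both by the limma-moderated regression). limma on log ratios called CpG35 too (adjusted p = 0.0414).

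The stretch from CpG29 to CpG31 is printed because it contains the CpG with the largest difference (mm9, minus strand, chr11:53431864-53431938, CpGs in capitals). The letters gata lie before CpG29.
Intron 1, CpGs 29 to 31: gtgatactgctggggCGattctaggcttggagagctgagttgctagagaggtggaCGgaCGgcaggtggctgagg

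The 3′ region of HSII in intron 2 was the region in which TET iTKO cells had CpGs called lower than in naïve cells, and the difference from TET WT cells was small there. The mean of its 5 CpGs was 65.9% and 63.6% in TET WT and 77.2% and 73.5% in TET iTKO cells (10.6 points ± 3.08, SD, n = 2 against 2). CpG42 was called higher in TET iTKO cells, with 65.5% and 61.4% in TET WT against 85.5% and 77.2% (17.9 points ± 6.51, adjusted p = 0.00533, limma-moderated regression). CpG38 was called near the threshold, with 75.1% and 73.5% against 87.1% and 81.6% (10.1 points ± 4.04, adjusted p = 0.0452, limma-moderated regression). Both calls depended on single libraries. CpG42 was not called without TET iTKO replicate 1 (13.8 points, adjusted p = 0.0643), and CpG38 was not called without that library (7.34 points, 0.219), without TET WT replicate 1 (10.9 points, 0.0834) or without TET WT replicate 2 (9.27 points, 0.141; all by the limma-moderated regression). CpG38 also missed the threshold by limma on log ratios (adjusted p = 0.0626) and with both genotypes alone in the fit (0.0577). CpG41 had 60.3% and 56.4% in TET WT and 76.6% and 68.8% in TET iTKO cells, and CpG40 had 74.3% and 75% against 86.6% and 80.8%. The genotypes did not overlap at either CpG, but neither passed the test (adjusted p = 0.0570 and 0.0659, limma-moderated regression), although CpG41 was called with both genotypes alone in the fit (0.0301) and CpG40 without TET iTKO replicate 2 (12 points, adjusted p = 0.0494, limma-moderated regression).

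CpG39 stood apart from its neighbours in the 3′ region of HSII. It had 54.2% and 51.9% in TET WT and 50.2% and 58.9% in TET iTKO cells, so that the TET WT libraries lay between the TET iTKO libraries (1.49 points ± 6.40, adjusted p = 0.776, limma-moderated regression). It was also the lowest CpG of this region in naïve cells, at 73.5% ± 3.97 (SD, n = 3), whereas the other 4 had 93.1% to 96%. At the other 4 CpGs TET iTKO replicate 1 was above replicate 2 by 5.48 to 8.23 points, and at CpG39 it was below by 8.77 points. The whole stretch is printed with CpG39 as the second CpG, 11 bases before the third (mm9, minus strand, chr11:53430160-53430337, CpGs in capitals). The letters gata are present here at more than 15 bases from any CpG.
HSII 3′ region, CpGs 38 to 42: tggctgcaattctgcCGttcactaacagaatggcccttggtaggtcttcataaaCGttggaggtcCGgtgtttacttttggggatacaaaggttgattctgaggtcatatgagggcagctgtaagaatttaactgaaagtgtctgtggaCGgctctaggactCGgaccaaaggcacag

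Exon 3, the amplicon between HSII and CNS2, was almost fully methylated in either genotype. Its 5 CpGs averaged 96.2% and 96.1% in TET WT and 95.5% and 95.9% in TET iTKO cells, with a difference of -0.463 points ± 0.289 (SD, n = 2 against 2). None of the 5 was called, with 0 at an unadjusted p under 0.05 (limma-moderated regression) and 0 calls by limma on log ratios. CpG44 had the highest difference, at 93.8% and 95.5% in TET WT and 96.2% and 95.7% in TET iTKO cells. CpG46 had the lowest, at 97% and 97.1% against 95.1% and 95.2%, and was the single CpG of the 60 at which both TET iTKO libraries lay below both TET WT libraries (-1.85 points ± 0.153, adjusted p = 0.395, limma-moderated regression).

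CNS2, downstream of the last exon of the coding transcript, had its 2 called CpGs at its 5′ edge. Of its 17 CpGs, 14 were tested, and both calls, higher in TET iTKO cells, were among CpGs 48 to 51. These 4 CpGs averaged 26.1% and 26.7% in TET WT and 39.7% and 39.3% in TET iTKO cells, a difference of 13.1 points ± 0.485 (SD, n = 2 against 2). CpG49 carried most of it, with 7.78% and 9.19% in TET WT and 35.9% and 37.8% in TET iTKO cells (28.3 points ± 1.65, adjusted p = 1.18e-05, limma-moderated regression). CpG51 had 3.41% and 3.63% against 10.2% and 10.7% (6.95 points ± 0.380, adjusted p = 0.0232, limma-moderated regression). That call was lost without any 1 of the 4 libraries, at adjusted p-values of 0.0503 (without TET iTKO replicate 1), 0.0567 (TET iTKO replicate 2), 0.0744 (TET WT replicate 2) and 0.0834 (TET WT replicate 1) and at 6.70 to 7.19 points (limma-moderated regression). CpG50 had 17.2% and 16% in TET WT and 23.8% and 28.1% in TET iTKO cells (adjusted p = 0.0558, limma-moderated regression), and was called by limma on log ratios (0.0461) and at a minimum of 500 reads (0.0472). CpG48, the highest of the element, had 76.1% and 78.0% against 88.7% and 80.6% (7.61 points ± 5.91, adjusted p = 0.0934), and was called without TET iTKO replicate 2 at 11.7 points (adjusted p = 0.0383, both by the limma-moderated regression).

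CpGs 52 to 61 had levels of at most 5.14% in any of the 4 libraries. They averaged 0.412% and 0.514% in TET WT and 1.06% and 2.18% in TET iTKO cells, and none of the 10 was called, with 1 at an unadjusted p under 0.05 (limma-moderated regression), whereas limma on log ratios called 3, CpGs 52, 54 and 56. The former was CpG52, with 0% and 0.279% in TET WT and 2.14% and 3.30% in TET iTKO cells (adjusted p = 0.0570, limma-moderated regression; 0.00310 by limma on log ratios, and 0.0464 with C counts lowered by the share of C outside CpGs). CpG55 had 0 reads with C in TET WT replicates 1 and 2 and in TET iTKO replicate 1, which allows levels of up to 0.564%, 0.278% and 1.07% (3 reads over the total), and 0.244% in TET iTKO replicate 2. The mean of the 14 CpGs of CNS2 was 7.75% and 7.99% in TET WT and 12.1% and 12.8% in TET iTKO cells (4.56 points ± 0.517, SD, n = 2 against 2). A minimum of 500 reads left CpGs 48 to 51 alone and gave 13.1 points, and weighting by reads gave 10.8 points.

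CpG63, near the 3′ end of CNS2, was left out of the tests for its depth in 1 library. It had 1.57% (0.433% to 5.56%, 127 reads) and 5.62% (4.22% to 7.43%, 801 reads) in TET WT cells, and 10.3% (4.06% to 23.6%, 39 reads) and 26.2% (23.1% to 29.6%, 698 reads) in TET iTKO cells, with 95% Wilson intervals. At a minimum of 20 reads CpG63 was called (14.6 points, adjusted p = 0.000729, limma-moderated regression). CpGs 62 and 64 had 4.74% and 4.20% in TET iTKO replicate 2 and 0 reads with C among 37 and 35 reads in TET iTKO replicate 1, which allows up to 8.11% and 8.57% (3 reads over the total). In TET WT cells they had 0.813% and 1.37% at CpG62, and 0% and 1.08% at CpG64. The 5′ edge of CNS2 is shown for CpG49, the second CpG of the sequence (mm9, minus strand, chr11:53419471-53419651, CpGs in capitals), with the letters gata before CpG50, the third.
CNS2, CpGs 48 to 51: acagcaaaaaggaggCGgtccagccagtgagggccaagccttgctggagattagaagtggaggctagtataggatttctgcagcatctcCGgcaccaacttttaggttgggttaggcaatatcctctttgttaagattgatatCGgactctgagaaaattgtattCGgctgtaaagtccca

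**Figure D2:**
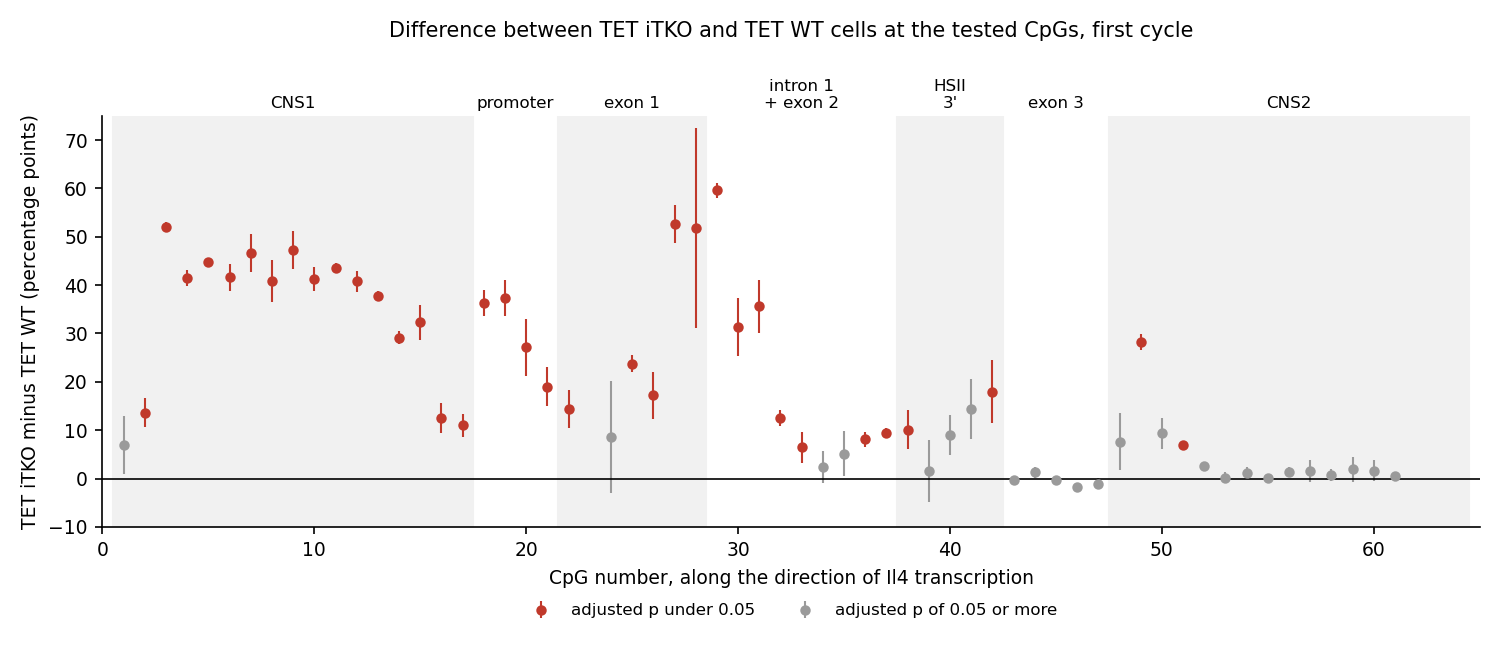
Difference of the mean levels of TET iTKO and TET WT cells (y axis, percentage points) at the 60 tested CpGs by CpG number (x axis), with bars of the combined SD of the 2 libraries of each genotype. Red points have an adjusted p under 0.05. The highest point is CpG29 with 59.6 points, and the 5 points of exon 3 lie between -1.85 and 1.27 points.

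Each genotype was also set against naïve cells. These came from a separate WT set, and no naïve sample is labelled with a TET genotype. The levels at which TET iTKO and TET WT cells entered culture are therefore not known, and differences between the sets cannot be told apart from changes in culture. TET iTKO cells were called different from naïve cells only in the 3′ region of HSII, while TET WT cells were called lower at CpGs of CNS1, the promoter, intron 1 and exon 2, the 3′ region of HSII and CNS2. Of 54 CpGs tested between TET iTKO and naïve cells, 5 were called lower in TET iTKO cells (9.26%) and 0 higher, with 11 at an unadjusted p under 0.05 (limma-moderated regression). The 5 were CpGs 38 to 42, which are all CpGs of the 3′ region of HSII. Of 56 CpGs tested between TET WT and naïve cells, 39 were called lower in TET WT cells (69.6%) and 0 higher. limma on log ratios called 42, CpG44 of exon 3 among them, and a replicate block left 20 calls, with 31 at an unadjusted p under 0.05 (limma-moderated regression). The naïve libraries and the fit are shared by these comparisons, so that their counts are not independent, and the differences below are given side by side.

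In the 3′ region of HSII, the mean level was 90.7%, 90.3% and 90.9% in the naïve libraries, 77.2% and 73.5% in TET iTKO and 65.9% and 63.6% in TET WT cells. TET iTKO cells lay between naïve and TET WT cells there, with no overlap of the libraries. The largest difference from naïve cells was at CpG41, with 95.1%, 90.9% and 93.3% in the naïve libraries against 76.6% and 68.8% in TET iTKO cells (-20.4 points, adjusted p = 0.00774, limma-moderated regression), and in TET WT cells the difference from naïve cells was -34.7 points. CpG39 had 72.3%, 70.2% and 77.9% in naïve cells against 50.2% and 58.9% in TET iTKO cells (-18.9 points, adjusted p = 0.00774, limma-moderated regression), and -20.4 points in TET WT cells. CpG39 was thus about as far below naïve cells in TET iTKO as in TET WT cells. The differences of CpGs 38, 40 and 42 were -11.6, -12.2 and -13.5 points in TET iTKO cells and -21.7, -21.3 and -31.4 points in TET WT cells. The count of 5 depended on TET iTKO replicate 2, the lower library at 4 of these CpGs, and without it 1 CpG was called (CpG39, adjusted p = 0.0441, limma-moderated regression). It was 4 without naïve replicate 3 or TET iTKO replicate 1, where CpG39 was not called (-16.7 points, adjusted p = 0.0640, and -14.5 points, adjusted p = 0.136, limma-moderated regression). It was 0 of 18 with a minimum of 500 reads, which no CpG of this region met in naïve replicate 2, and 0 of 54 with a replicate block (0 and 4 at an unadjusted p under 0.05, limma-moderated regression), whereas limma on log ratios called the same 5.

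In CNS1 the naïve libraries had means of 92.1%, 93% and 93%, above both TET iTKO libraries (90.4% and 90.5%) by a small margin. Of the 17 CpGs, 13 had a lower mean in TET iTKO than in naïve cells and 4 a higher one, from -6.12 points at CpG6 to 3.83 points at CpG15, and none was called (2 at an unadjusted p under 0.05 and 0 calls by limma on log ratios, limma-moderated regression). For TET WT cells the call was lower than naïve cells at all 17, with differences of -56.7 to -9.19 points. Intron 1 and exon 2 had 94.7%, 93% and 93.9% in naïve and 94.1% and 93.7% in TET iTKO cells, which overlapped, and CpG29 had 93.4%, 88.3% and 90.4% against 88.9% and 90% (adjusted p = 0.953, limma-moderated regression). Exon 1 could not be tested at a minimum of 100 reads in naïve replicate 2. Its mean was 93.6% and 92.5% in the other naïve libraries and 86.9% and 94.4% in TET iTKO cells. When naïve replicate 2 was left out, 60 CpGs with the 6 of exon 1 were tested, and the calls were the same 5 CpGs in the 3′ region of HSII.

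The promoter had a higher mean in TET iTKO than in naïve cells, with 47.1%, 51.4% and 50.1% in the naïve libraries and 54.0% and 57.5% in the TET iTKO libraries, without overlap, and 25.8% on average in TET WT cells. CpG18 had 62.5%, 60.7% and 60.6% in naïve and 71.6% and 75.4% in TET iTKO cells (12.3 points, adjusted p = 0.121, limma-moderated regression), and CpG20 had 47.7%, 56.0% and 50.8% against 59.0% and 62.4% (9.16 points, adjusted p = 0.239, limma-moderated regression). The difference was 3.65 points at CpG21 and -0.457 points at CpG19, which had a slightly lower mean in TET iTKO cells. None of the 4 promoter CpGs was called, with 2 at an unadjusted p under 0.05 and 0 calls by limma on log ratios. Naïve replicate 2 had 109 to 117 reads at these CpGs. At the 5′ edge of CNS2, CpG49 had 31.5%, 31.7% and 39.2% in naïve and 35.9% and 37.8% in TET iTKO cells, which overlapped, and CpG50 had 35.8%, 32.5% and 38.7% against 23.8% and 28.1% (-9.72 points, adjusted p = 0.228, limma-moderated regression). CpG63 had 32.5%, 33.0% and 32.8% in naïve cells, above the 26.2% of TET iTKO replicate 2.

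The control cells of this line were also set against the other first-cycle WT libraries of the series, which are 3 of the separate Th2 set and 2 of the TDG line (1 of them the sum of the samples labelled replicates 2 and 3). TET WT cells had lower levels than these at 23 of 46 CpGs tested (50.0%) and higher at 0, with 25 at an unadjusted p under 0.05 (limma-moderated regression). The called CpGs were 15 of CNS1, 3 of the promoter, 3 of intron 1 and exon 2, and 1 each of exon 1 and the 3′ region of HSII. The CNS1 mean of 56.1% in both TET WT libraries lay below the other WT libraries, which had 69.7% at the lowest, 74.2% as the middle value and 86.5% at the highest. TET iTKO cells, with 90.4% and 90.5%, lay above all 5 of them. In exon 3 the other WT libraries had 95.7% to 96.2% and TET WT cells 96.2% and 96.1%. The count of 23 was 15 without TET WT replicate 1, 14 with only the compared groups in the fit and 0 with a replicate block (17 at an unadjusted p under 0.05, limma-moderated regression). limma on log ratios called 17.

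With the other WT libraries in place of TET WT cells, TET iTKO cells were called higher at 29 of 46 CpGs, and all 29 were among the 36. The 5 that were tested and not called were CpGs 16 and 17 of CNS1, CpG37 of exon 2 and CpGs 38 and 42 of the 3′ region of HSII, and CNS2 could not be tested for want of reads in the TDG line. The differences were smaller with this control. The CNS1 means differed by 15 points (34.3 with TET WT cells), those of the promoter by 19.1 points (30.0), those of exon 1 by 18.5 points (28.1) and those of the 3′ region of HSII by 3.95 points (10.6), where TET iTKO cells with 77.2% and 73.5% lay within the range of the other WT libraries, 64.2% to 82.5% (exact permutation test, two-sided, p = 0.571, 2 libraries against 5). In CNS1, the promoter, exon 1, and intron 1 with exon 2, both TET iTKO libraries lay above the 5 other WT libraries (exact permutation tests, p = 0.0952, the smallest that 2 against 5 allow). In the 3′ region of HSII, the highest of the other WT libraries, at 82.5%, was replicate 3 of the separate Th2 set. The next highest there had 72.5%, below both TET iTKO libraries. CpG29 again had the largest difference, 44.6 points (adjusted p = 8.06e-07, limma-moderated regression).

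**Figure D3:**
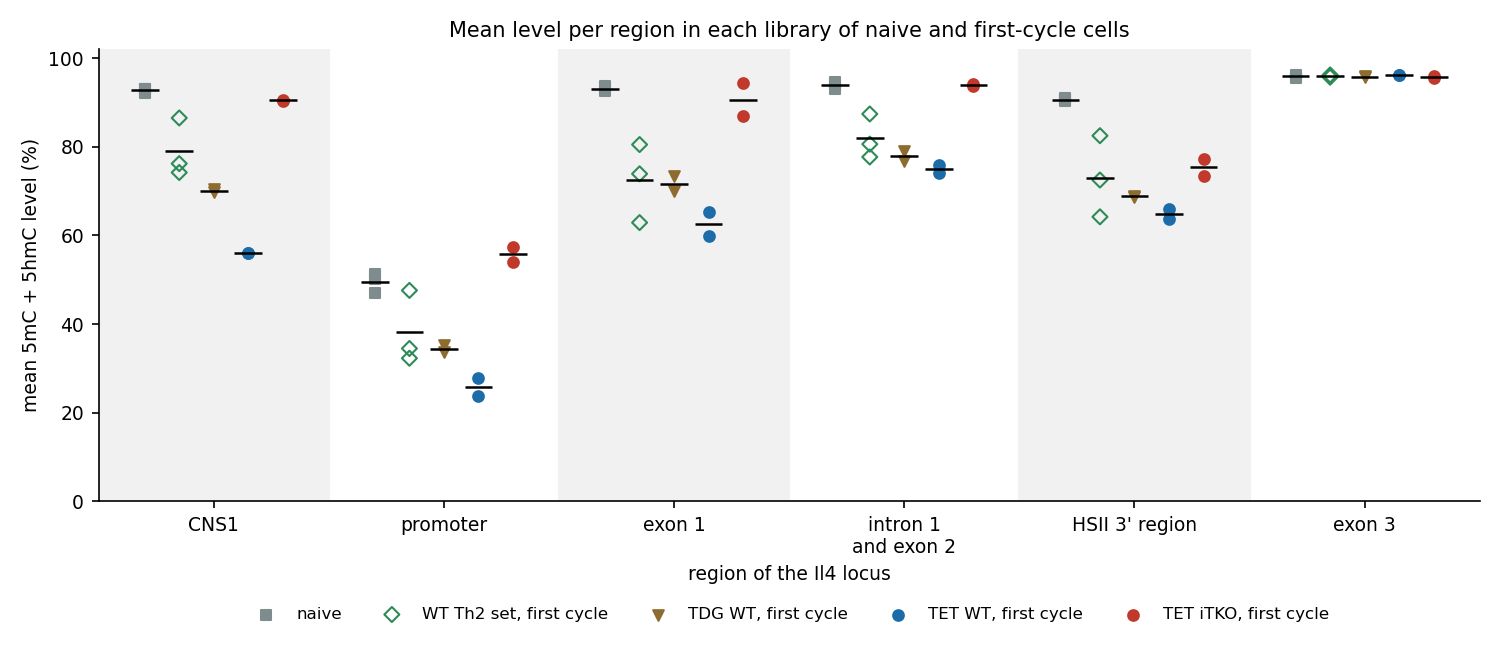
Mean level (y axis, %) of 6 regions in each library of naïve cells, the first-cycle WT cells of 3 sets and TET iTKO cells of the first cycle, with black bars for group means. In CNS1 the TET iTKO libraries (90.4% and 90.5%) lie above every WT library of the first cycle, and the TET WT libraries (56.1% in both) lie below the others.

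Deletion of Tdg was compared because its product acts after TET proteins. On the scale of log odds, which the regression tests, the effect of TET deletion exceeded that of TDG deletion at 29 of 46 CpGs tested (63.0%) and fell below it at 0, with 31 at an unadjusted p under 0.05 (difference of the differences, limma-moderated regression). These 29 were 16 of CNS1, 4 of the promoter, 5 of exon 1, 3 of intron 1 (CpGs 29 to 31) and CpG42 of the 3′ region of HSII. CNS1 had 69.7% and 70.4% in TDG WT and 63.1% and 68.9% in TDG iKO cells, so that both TDG iKO libraries lay below both of their controls, whereas TET iTKO cells lay above theirs. The controls themselves differed, with CNS1 at 56.1% in both TET WT libraries. The part of the low TET WT control in these calls was not tested. At CpG29 TET deletion differed from its control by 59.6 points and TDG deletion by -3.09 points (adjusted p = 1.01e-05 for the difference between them, limma-moderated regression). In the 3′ region of HSII the effect of TET deletion was 10.6 points, and 3.95 points with the other WT libraries in place of TET WT cells. That of TDG deletion was close to 0, with means of 68.8% and 68.4%. At 4 of the 5 CpGs there was no call for the difference between the effects. A minimum of 500 reads left 27 of the 46 CpGs, of which 12 were called.

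The first-cycle difference was then compared with that of the second cycle. On the scale of log odds, no CpG of 60 was called for a change of the TET effect between the cycles (0%), with 16 at an unadjusted p under 0.05, a smallest adjusted p of 0.162 and 0 calls by limma on log ratios as well. In points, a scale on which the change was not tested, the second-cycle difference was larger at 51 of the 60 CpGs, by 16.4 to 27.9 points in CNS1. It was smaller at 9. These were CpGs 40, 41 and 42 of the 3′ region of HSII (-0.583, -9.69 and -15.2 points), CpGs 43 to 45 of exon 3 and CpGs 55, 56 and 61 of CNS2. Those of exon 3 and CNS2 changed by -0.659 to -0.0968 points. CpG42 had 17.9 points in the first cycle and 2.71 points in the second (unadjusted p = 0.0366, adjusted p = 0.169, limma-moderated regression). The 3′ region of HSII stood at 77.2% and 73.5% in TET iTKO cells of the first cycle and at 38.8% and 42.2% in those of the second, and in TET WT cells at 65.9% and 63.6% and then at 36.7% and 31.4%. CNS1 stood at 90.4% and 90.5% and then at 88.5% and 89.1% in TET iTKO cells, and at 56.1% in both libraries and then at 34.7% and 26.7% in TET WT cells. Without TET iTKO replicate 2 of the first cycle, 1 CpG was called, CpG28, with a difference larger by 34.9 points in the second cycle (adjusted p = 0.0358, limma-moderated regression).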

How the data were processed

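Alignment to mm9 was done by the authors with BSMAP (version not given), who deposited for each cytosine the count of reads with C, the count with C or T, and the fraction of C. The deposited counts were used without normalization, and levels were 100 times C over C or T on the minus strand. Amplicons were placed by the study's primers, and CpGs were numbered 1 to 64 along Il4 transcription. The samples labelled replicates 2 and 3 of TDG WT, and of TDG iKO, were summed as runs, since their files carry 1 library name per genotype. A quasi-binomial regression on the counts of 22 libraries in 10 groups was used, with Williams weights, dispersions moderated by limma (never below 1), two-sided F-tests of log odds and Benjamini-Hochberg adjustment. A CpG needed 100 reads in every library compared. The test was checked on simulated data. Region means were unweighted and compared by exact permutation tests, two-sided. The error given with a difference is the square root of the summed variances of both groups.

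Named are the CpGs of each amplicon with the largest and the smallest difference, tested CpGs on the other side of the call from most of their amplicon, CpGs 3 to 8, 25 to 31, 38 to 42, 48 to 51 and 63, and those under 100 reads. Other CpGs were named after their values were seen. Members, lists and tests were chosen with earlier results of these data known. Alternatives were a minimum of 20 or 500 reads, limma on log2((C + 1)/(T + 1)), the compared groups alone, the replicate block, a difference of at least 10 points, other WT controls, C counts lowered by the share of C outside CpGs, read-weighted means and each library left out. Software was Python 3.11.15 (numpy 2.4.6, scipy 1.17.1, pandas 2.3.3, matplotlib 3.10.9) and R 4.3.3 with limma 3.58.1.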

Additional observations from a re-analysis of the deposited data

Results flagged for a closer look

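The effect of TET deletion in the first cycle was larger than that of TDG deletion at 29 of the 46 CpGs tested, by a test of the difference between the effects in log odds (quasi-binomial regression with limma, two-sided, Benjamini-Hochberg). In points, which were not tested themselves, the differences at these CpGs were 13.9 to 62.7 points. The controls of the effects were unlike, with CNS1 at 56.1% in both TET WT libraries and at 69.7% and 70.4% in TDG WT cells.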

How the results depend on the processing

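TET iTKO against TET WT cells kept its direction under every alternative run, with 29 to 41 CpGs called, except with the replicate block, where 0 of 60 were called. Same-numbered TET WT and TET iTKO libraries had deviations that correlated at -0.261 over the 60 CpGs. They were alike in depth, with medians of 1026 and 952 reads in replicates 1 and of 5500 and 3999 in replicates 2, and the part of depth in the 0 calls was not tested. The block also left fewer degrees of freedom to estimate the spread, with a prior of 0.881 against 4.26 for the same libraries without it. The part of this loss in the 0 calls was not tested either. Paired crosswise, which was chosen for that negative correlation and does not offset the 0, 31 were called. Without 1 library in turn 32 to 36 were called, and 30 CpGs were called each time.

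The replicate block also gave 0 calls for TET iTKO against naïve cells, 20 for TET WT against naïve cells and 0 for TET WT against other WT libraries, with the compared groups alone in the fit. In these comparisons the block joined libraries of separate sets by replicate number alone. No label links these numbers between the sets, so these counts cannot tell what a true pairing would give. A minimum of 500 reads gave 0, 11 and 12 calls for TET iTKO against naïve, TET WT against naïve and TET against TDG deletion, with fewer CpGs tested (18, 18 and 27). Only the compared groups in the fit gave 14 for TET WT against other WT libraries, and the cause was not tested. Without 1 library in turn these counts ranged from 1 to 5 for TET iTKO against naïve, 15 to 29 for TET WT against other WT libraries and 0 to 1 for second against first cycle. A lone library was then assumed to vary like the other groups. Region means kept their sign in every alternative. Exon 1 had no CpG with 500 reads in all 4 libraries, and CNS2 had no mean against the other WT libraries.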
